A study of Mus musculus with 18 samples.

Results

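The BMAL1 regions common to liver, kidney and heart were stretches of the mouse genome at which a BMAL1 peak was listed in each of the 3 tissues. They were chosen by peak position alone: the peaks of the 3 lists were merged where they overlapped by at least 1 bp, and a merged region was kept when it held a peak of every list. This gave 519 common regions among 9005 merged regions, or 5.76%. A further 1323 regions held peaks of 2 lists and 7163 held a peak of 1 list. Their peaks made up 10.8% of all liver peaks, 12.9% of all kidney peaks and 20.6% of all heart peaks.

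The peaks came from chromatin immunoprecipitation and sequencing (ChIP-seq) of BMAL1 in wild-type C57BL/6 mice aged 3 to 6 months. The mice had food and water at all times in cycles of 12 h light and 12 h dark, and tissues were collected at zeitgeber time 6, that is 6 h after lights on. Liver, kidney and heart were taken from the same animals, 3 mice per tissue, and each tissue gave 3 libraries precipitated with a chicken antibody to BMAL1 and 3 input libraries, 18 in all. All animals were wild type, no library from mice lacking BMAL1 was analysed here, and each organ was a mixture of cell types. Replicates had been pooled before peaks were listed, so every value below stands for 1 pool per tissue, without a spread between animals. Beside each share stands its exact Clopper-Pearson 95% interval, which takes in counting error alone. The lists hold no expression values, so the tissue labels could not be set against marker genes. For the heart inputs, the source label says kidney while the titles and tissue labels say heart, and whether this touched the heart list was not tested.

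BMAL1 pairs with CLOCK or NPAS2, and the pair binds E-boxes, short DNA elements of which CACGTG is the canonical form. In the core loop of the clock the pair drives the Period and Cryptochrome genes, whose proteins block the pair in turn, and a second loop runs through the REV-ERB receptors, which repress Arntl, the gene of BMAL1. PAR bZIP factors such as DBP pass the rhythm on to output genes through another element, the D-box.

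The sequences of the best-ranked common regions whose centre lay in a RefSeq promoter are given first, since they show the elements that the later counts rest on. Each is the part of the region upstream of the listed start, on the strand of the gene, from the RefSeq promoter table of GRCm38.p6. Capitals mark CACGTG and the E-box-like CACGTT, which reads AACGTG on the other strand. The name before each sequence is the gene whose promoter it is.
Ciart, chr3:95882229-95882423, minus strand: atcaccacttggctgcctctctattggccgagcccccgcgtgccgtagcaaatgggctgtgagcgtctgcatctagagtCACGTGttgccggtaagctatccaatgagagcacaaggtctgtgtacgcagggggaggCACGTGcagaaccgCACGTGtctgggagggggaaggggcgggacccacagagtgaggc
5930430L01Rik, chr5:148995215-148995437, minus strand: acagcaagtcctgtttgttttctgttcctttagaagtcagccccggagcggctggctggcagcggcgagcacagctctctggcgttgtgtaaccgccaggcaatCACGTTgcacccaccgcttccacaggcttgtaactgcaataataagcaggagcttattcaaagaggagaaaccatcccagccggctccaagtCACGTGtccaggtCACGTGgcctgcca
Serf2, chr2:121449041-121449197, plus strand: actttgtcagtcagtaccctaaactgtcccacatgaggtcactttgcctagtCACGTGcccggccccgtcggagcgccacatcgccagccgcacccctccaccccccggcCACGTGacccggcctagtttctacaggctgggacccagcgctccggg
Klf11, chr12:24651121-24651313, plus strand: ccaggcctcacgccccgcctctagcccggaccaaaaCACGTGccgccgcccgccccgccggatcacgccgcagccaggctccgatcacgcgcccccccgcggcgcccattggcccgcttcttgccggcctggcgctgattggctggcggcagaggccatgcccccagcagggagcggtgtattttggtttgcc
Bnip3, chr7:138909507-138909716, minus strand: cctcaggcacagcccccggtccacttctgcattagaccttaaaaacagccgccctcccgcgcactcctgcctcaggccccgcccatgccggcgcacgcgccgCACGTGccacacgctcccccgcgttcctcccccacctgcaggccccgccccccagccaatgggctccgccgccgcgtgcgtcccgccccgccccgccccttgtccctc
Nr1d1, chr11:98775378-98775480, minus strand: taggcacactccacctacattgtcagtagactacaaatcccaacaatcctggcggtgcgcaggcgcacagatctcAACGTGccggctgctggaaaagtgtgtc
Cry2, chr2:92434070-92434319, minus strand: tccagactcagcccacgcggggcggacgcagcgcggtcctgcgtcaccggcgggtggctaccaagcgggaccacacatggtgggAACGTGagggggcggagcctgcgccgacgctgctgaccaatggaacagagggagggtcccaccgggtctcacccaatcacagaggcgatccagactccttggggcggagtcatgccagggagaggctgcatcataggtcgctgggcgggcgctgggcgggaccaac
Per3, chr4:151044666-151044798, minus strand: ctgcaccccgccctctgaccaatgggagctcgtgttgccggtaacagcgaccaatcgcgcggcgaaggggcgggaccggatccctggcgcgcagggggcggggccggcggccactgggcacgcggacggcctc
Dbp, chr7:45704997-45705139, plus strand: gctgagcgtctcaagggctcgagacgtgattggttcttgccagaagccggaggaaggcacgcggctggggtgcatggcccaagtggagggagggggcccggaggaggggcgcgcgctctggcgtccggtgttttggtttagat
4933433G15Rik, chr9:75410011-75410183, plus strand: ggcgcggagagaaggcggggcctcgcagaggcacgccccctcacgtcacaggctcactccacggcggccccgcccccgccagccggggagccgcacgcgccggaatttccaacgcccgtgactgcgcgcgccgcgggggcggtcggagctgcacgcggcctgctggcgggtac

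The promoter of Ciart, which encodes a repressor of the clock, carried 3 copies of CACGTG, and the closest pair lay 8 bp apart. The nearest copy was 19.3 bp from the region's centre, which is the mean of its peaks' centres. The promoter of the RefSeq gene 5930430L01Rik carried 2 copies only 7 bp apart and 1 CACGTT. The promoter of Serf2 carried 2 copies 52 bp apart, with the nearer one 5.67 bp from the centre. Klf11, a Kruppel-like transcription factor gene, and Bnip3, which encodes a mitochondrial receptor for mitophagy, each carried 1 copy, 24.3 bp and 9.00 bp from the centre. In Nr1d1, the gene of REV-ERB alpha, and in Cry2 the stretch held 1 CACGTT and no CACGTG. Neither element was in the stretches of Per3, Dbp and 4933433G15Rik. These stretches do not cover the regions whole, and the absence of the letters says only that they are not in this window.

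The common regions were narrow and their peaks lay almost on top of one another. Each of the 519 held exactly 1 peak of every list, and in 517 of them all 3 peaks had at least 1 bp in common. The median stretch shared by all 3 peaks was 173 bp, out of liver peaks 242 bp wide, kidney peaks of 188 bp and heart peaks of 198 bp, and 502 regions shared at least 100 bp. Peak centres were a median of 16.0 bp apart between liver and kidney, 18 bp between liver and heart and 17.0 bp between kidney and heart. The centres lay within 50 bp of each other in 90.2% of the regions for liver and kidney (87.3 to 92.6%), 85.2% for liver and heart (81.8 to 88.1%) and 89.8% for kidney and heart (86.9 to 92.3%). The overlap that the rule demands sets an upper limit to these distances, so they are a description.

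Few regions depended on the edge of the rule. Among the smallest overlaps inside it were 17 bp at Ehmt2 (liver score 93, kidney 31, heart 39) and 47 bp at Lamtor4 (137, 57 and 47). Just outside it, the peak of the missing list lay 10 bp away at Tanc2, 12 bp away at Dtymk and 13 bp away at Trim37. The missing peaks there scored 27 in kidney, 27 in heart and 157 in liver. Of the regions with peaks in 2 lists, 6 had a peak of the remaining list within 100 bp.

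Most common regions were strong peaks in every list. A whole-number score was deposited with each peak; no source used here gives its scale, and regions were placed by percentile within each list, where the best peak stands at 100. The median score of the common regions was 99.0 in liver, against 40.0 over the whole list, 76.0 against 28.0 in kidney and 69.0 against 25 in heart. Their median percentile stood at 90.4 for liver, 90.8 for kidney and 88.5 for heart. Of the 100 highest-scoring peaks of a list, common regions held 84 of the liver list, 98 of the kidney list and 95 for heart. The upper 10% of the lists held 260 common regions among 482 in liver, 271 among 409 in kidney and 230 among 258 in heart. The scores and the presence in 3 lists come from the same peak calls, so these values are a description and no test was made.

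The scores ran in parallel but not strictly so. Across the 519 regions, Spearman's rho of the scores was 0.78 between liver and kidney, 0.73 between liver and heart and 0.81 between kidney and heart. A total of 182 regions stood in the upper 10% of all 3 lists and 453 in the upper 50% of all 3, while 7 were in the lower 50% throughout. Within a region the highest and lowest percentile were a median of 7.64 points apart. The gap was at most 10 points in 304 regions and over 50 points in 14.

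**Figure D1:**
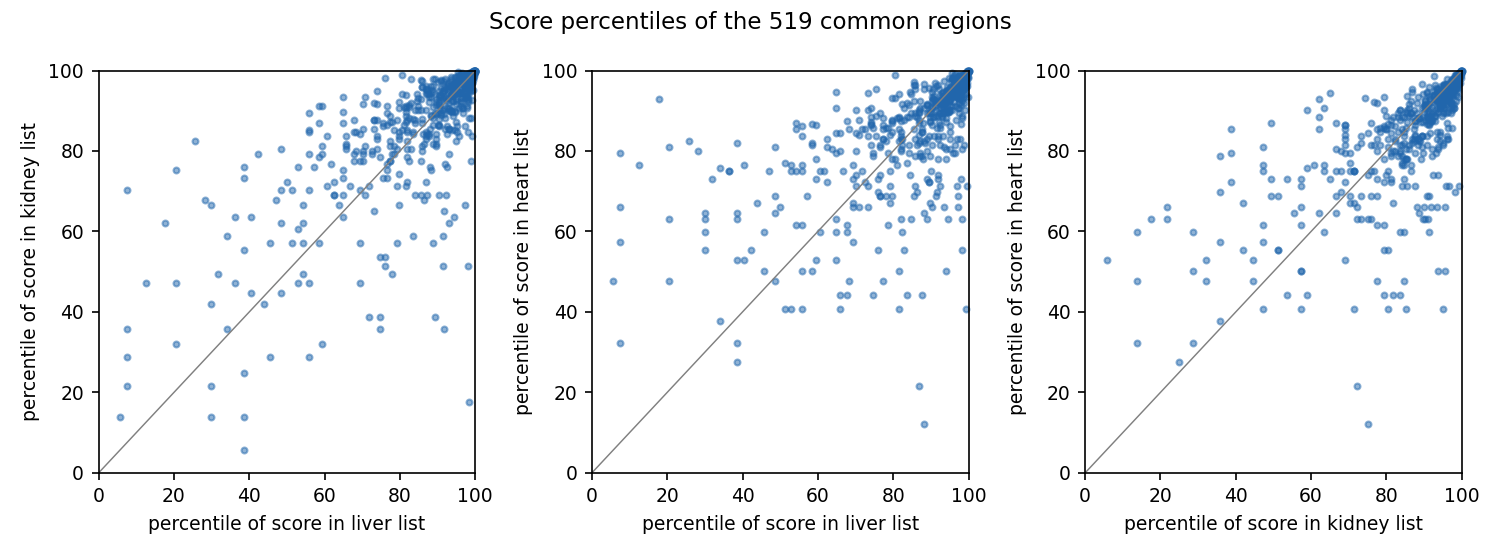
Each point is 1 of the 519 common regions, placed by the percentile of its score in a pair of peak lists (0 to 100, best peak at 100), and the grey line marks equal percentiles. The points crowd into the upper right corner, near the medians of 90.4, 90.8 and 88.5, with a thin scatter of regions strong in one list and weak in another.

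Some of the regions away from the diagonal stood much higher in one list than the mean percentile of the other lists. Counting those more than 20 points above that mean gave 17 for liver, 20 for kidney and 27 for heart. The widest gap of all, 80.6 points, was at Lrp1, the gene of an endocytic lipoprotein receptor, where liver scored 174, kidney 17 and heart 31. Liver also stood above the others at Tmem266 (171, 28 and 27), at Nudt4, the nearest gene 59.2 kb away (91, 45 and 16), at Pipox, a peroxisomal oxidase gene (87, 42 and 17), and at Rbfox2, a splicing factor gene (105, 22 and 36). The kidney percentile exceeded that mean most, with scores in the same order of tissues, at Fam107a (43, 60 and 22), Gtdc1 (24, 45 and 31), Zdhhc23 (34, 50 and 27), Slc1a7, a glutamate transporter gene (26, 55 and 53), and Klc3, a kinesin light chain gene (74, 91 and 25). At Slc1a7 kidney and heart stood alike, at percentiles of 82.4 and 82.5, and liver was low, at 25.7. For heart the leading regions were at Jam3, a junctional adhesion gene (23, 34 and 90), Tnxb, which encodes a tenascin of the matrix (19, 18 and 33), Sik1, a salt-inducible kinase gene (24, 26 and 50), Psmg1, 118 kb away (21, 26 and 43), and Itpr3, an inositol trisphosphate receptor gene (19, 40 and 47). With 1 pool per tissue these differences have no replicate check.

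Regions at the REV-ERB, Period and Cryptochrome genes were among the best-ranked, though not all of them were. The 2 best by mean rank were at the REV-ERB genes. The first lay 8.12 kb from Nr1d1 (chr11:98783376-98783617) and was the top peak of every list, scoring 389 in the liver list, 304 in the kidney list and 375 in the heart list. The second lay in Nr1d2, the gene of REV-ERB beta (chr14:18238468-18238709), and was in place 2 of every list, with 345, 301 and 324. Nr1d1 had 2 more, with 306, 290 and 305 inside the gene 1500 bp downstream of a start, and 277, 245 and 247 at its start. A common region lay inside or within 10 kb of 3.11% of all 21896 protein-coding genes, 681 in number. The gene lists were chosen with earlier results of these data known, so a high count in a list may follow from that choice. The share is given for orientation, and the counts of list genes that follow were not tested against it.

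All 5 Period and Cryptochrome genes had a common region. At Per1 the stronger one lay 4061 bp upstream of a start and scored 318 in liver, 254 in kidney and 262 in heart, and the other, 152 bp upstream, scored 196, 162 and 158. At Per2 one region scored 228, 232 and 241, at percentiles of 99.4, 99.7 and 99.5, and another 91, 69 and 32. Per3 scored 236, 244 and 273, at percentiles of 99.5, 99.8 and 99.7. Cry1 had a single region with 217, 188 and 200. Cry2 had one inside the gene, 10189 bp downstream of a start, with 253, 246 and 274, and one 138 bp upstream of the start with 212, 229 and 195. None of these regions except the weaker one of Per2 fell below the percentile of 98.3 in any list.

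The PAR bZIP genes and their antagonist Nfil3, which competes for the D-box, had common regions in 4 of 4 cases. Dbp had 3 within 3.00 kb. They scored 321, 285 and 308 inside the gene, 315, 238 and 256 just upstream, and 217, 205 and 208 at 831 bp downstream of the start. Tef had one of the strongest regions of all, with 288, 277 and 297, and 2 weaker ones, with 111, 120 and 78 and with 93, 109 and 81. Hlf was the gene nearest to the largest number, 4. Its strongest lay 27.2 kb upstream and scored 282, 258 and 300, and the 3 closer ones scored 162, 152 and 176, then 87, 110 and 64, then 62, 66 and 62. Nfil3 was uneven, scoring 191 for liver, 100 for kidney and 51 for heart.

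The accessory repressors were complete as well, 3 of 3. Bhlhe40 and Bhlhe41, which encode the E-box-binding repressors DEC1 and DEC2, had 3 common regions each. The strongest at Bhlhe40 scored 269, 219 and 250. At Bhlhe41 the region with the best mean rank scored 157, 181 and 183. Another, with 205, 85 and 170, stood lowest in kidney, at percentiles of 99.1, 92.6 and 98.6. Ciart had the 1 region whose E-boxes are printed above, with 255, 219 and 220.

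The genes of the activators were without a common region: Arntl, Clock, Npas2 and Arntl2 had a common region in 0 of 4 cases. At the share of 3.11% of all protein-coding genes, a list of 4 would most often hold none as well. Arntl had 1 region listed in kidney alone and Clock 1 listed in heart alone. Among kinases and ubiquitin enzymes that act on clock proteins, Usp2, a deubiquitinase gene, had 3 common regions, with scores of 157, 147 and 96, of 161, 90 and 101, and of 27, 38 and 48. Csnk1d, Csnk1e and Gsk3b had no region in any list, and Fbxl21, Btrc and Fbxw11 had 1 each, in a single list.

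**Figure D2:**
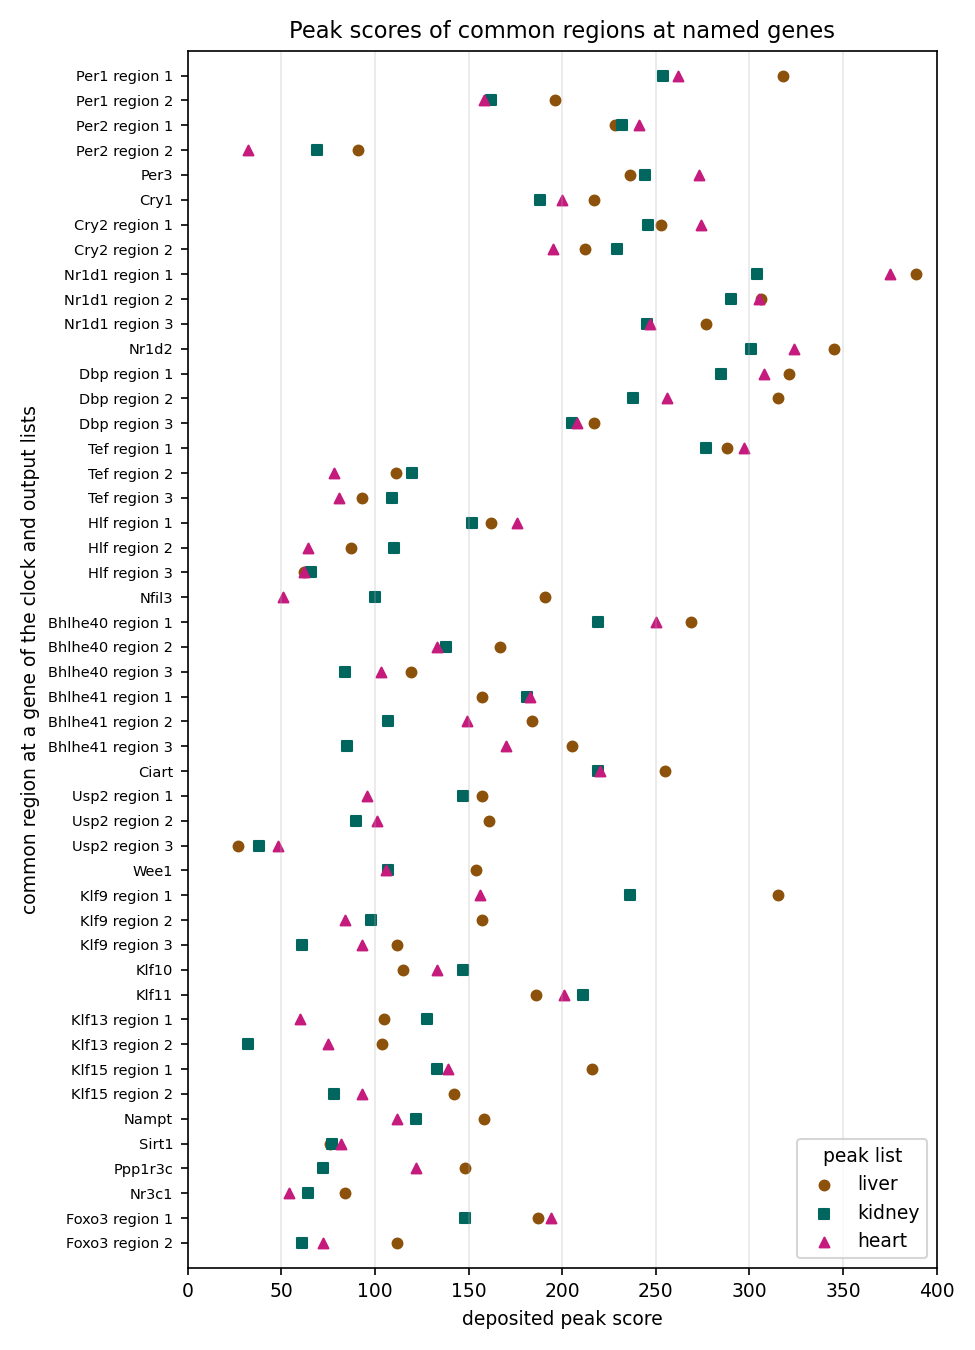
Each row is a common region at a gene of the fixed lists named in the text and each symbol its deposited peak score in the liver, kidney or heart list; regions of 1 gene are numbered by mean rank. Symbols reach 389 at the first Nr1d1 region, and those at Usp2, Klf, Nampt, Sirt1 and Foxo3 mostly lie lower than those at Nr1d1, Nr1d2, Dbp and the Cryptochromes.

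The lists of output and signalling genes were met less completely. Of 10 Kruppel-like factor genes 5 had a common region. Klf9 was the strongest, with 315, 236 and 156 at percentiles of 99.9, 99.7 and 98.2, and had 2 more. Klf11 scored 186, 211 and 201, Klf10 scored 115, 147 and 133, and the better region of Klf15, a regulator of amino acid and glucose metabolism, scored 216, 133 and 139. Klf13 had 2, with 105, 128 and 60 and with 104, 32 and 75. Klf2, Klf3, Klf4, Klf5 and Klf6 had none.

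Among 6 genes of NAD, heme and redox metabolism, Nampt, the rate-limiting enzyme of NAD salvage, scored 158, 122 and 112, and Sirt1, a NAD-dependent deacetylase gene, scored 76, 77 and 82. Alas1 and Por, both of the heme and P450 path, had regions in liver and kidney but no common one. Wee1, a kinase that holds back mitosis, was the 1 gene of 7 in the cell cycle list, with 154, 107 and 106. In the list of 7 PPAR receptors and coactivators the 1 gene was Ppp1r3c, which encodes a glycogen-targeting subunit of protein phosphatase 1 and neither a receptor nor a coactivator, with 148, 72 and 122. Ppara, Ppard, Ppargc1a and Ppargc1b had regions in liver and kidney and none in heart. The heart list was the shortest, with 2519 peaks against 4813 in liver and 4034 in kidney. How many of all genes lack a heart region was not counted, so this absence is not particular to these genes as far as is known.

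Of 7 stress and glucocorticoid genes, Per1 and Nr3c1, the gene of the glucocorticoid receptor, had common regions, with 84, 64 and 54 for Nr3c1. Of 8 insulin and growth signalling genes only Foxo3 did, with 187, 148 and 194 and with 112, 61 and 72. The 9 tissue-identity genes, namely Alb, Apoa1, Cps1, Umod, Slc34a1, Nphs1, Myh6, Tnnt2 and Nppa, had a common region in 0 cases. Over all lists 27 of 82 genes had one, and the lists with every member present were those of the Period and Cryptochrome genes, the PAR bZIP genes with Nfil3, and the accessory repressors.

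Other members of the best 20 by mean rank were at genes outside these lists. Fbxl22, the gene of an F-box protein, held a region 2755 bp downstream of a start with 287, 249 and 230. The region at the promoter of 5930430L01Rik scored 283, 224 and 162, with the nearest protein-coding gene, Hmgb1, 51.4 kb away. The region beside 1810013L24Rik scored 251, 183 and 222. Between Mapk6, the gene of an atypical MAP kinase, and 4933433G15Rik the scores were 218, 197 and 222. The remaining 16 of the 20 were at Nr1d1, Nr1d2, Dbp, Tef, Per1, Per2, Per3, Hlf, Cry2, Bhlhe40, Ciart and Klf9.

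Some common regions lay close together. Of the 519, 59 (11.4%, 8.77 to 14.4%) had another within 25 kb, in 26 clusters: 19 with 2 regions and 7 with 3. Linked regions enter the count together, so the interval, which treats regions as independent, is only a guide. The count was not made for the other merged regions, so it has no background here. The clusters of 3 were at Hlf, Nr1d1, Klf9, Bhlhe40, Bhlhe41, Dbp and Usp2. They spanned from 3.00 kb at Dbp to 21.3 kb at Hlf. Regions in clusters had median percentiles of 95.7 in liver, 96.4 in kidney and 94.7 in heart, against 89.1, 89.8 and 87.5 for the others. Counted by nearest protein-coding gene within 50 kb, 470 genes had a common region, 17 of them with 2 and 8 with 3 or more. The 8 were Hlf, Bhlhe40, Bhlhe41, Dbp, Klf9, Nr1d1, Tef and Usp2.

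Most common regions lay at the start of a gene. Positions of starts came from the RefSeq promoter table, which held 79.7% of protein-coding genes and no start on chromosome 18, so the 9 common regions there were left out. Of the other 510 regions, 316 (62.0%, 57.6 to 66.2%) had a listed start within 1 kb of their centre. Over all merged regions the share was 28.9%. It was 42.3% (39.6 to 45.0%) for regions with peaks in 2 lists and 24.0% (23.0 to 25%) for those in 1 list. The intervals of the 3 classes did not overlap. The class of 1 list was mixed. Its share was 32.5% (30.6 to 34.5%) for kidney only, 24.6% (22.5 to 26.8%) for heart only and 17.4% (16.1 to 18.8%) for liver only. The median distance to a start was 402 bp for common regions, 3570 bp for 2 lists and 11600 bp for 1 list.

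The same share was also taken among regions that stood at a percentile of 90 or more in some list. The share then came to 62.9% (57.4 to 68.1%) of 326 common regions, 43.2% (36.2 to 50.4%) of 199 with 2 lists and 21.4% (14.3 to 29.9%) of 117 with 1 list. A common region had 3 lists in which to reach that percentile and a region of 1 list had 1, so peak strength was not matched. Whether strength accounts for the difference between the classes was not tested. Among the common regions themselves, those at a start and those away from one differed little in percentile, with medians of 90.6 and 89.9 in liver, 91.1 and 90.1 in kidney and 89.4 and 87.5 in heart.

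The regions at starts leaned upstream. Of the 316, 205 were centred upstream and 111 downstream or on the start, with a median of -45.8 bp. Within 500 bp lay 275, and within 100 bp 141. With distances rounded to whole bp and 0 taken as downstream, the 100 bp just upstream held 83 regions and the 100 bp just downstream 58. This rounding moves a few regions from the upstream to the downstream side. In 59 of the 316 (18.7%, 14.5 to 23.4%) starts were listed on both strands within 1 kb, against 16.8% for 2 lists and 16.9% for 1 list, whose intervals overlapped. Of the 194 common regions away from a listed start, 107 lay inside a protein-coding gene, 78 outside genes but within 50 kb of one and 9 farther away.

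**Figure D3:**
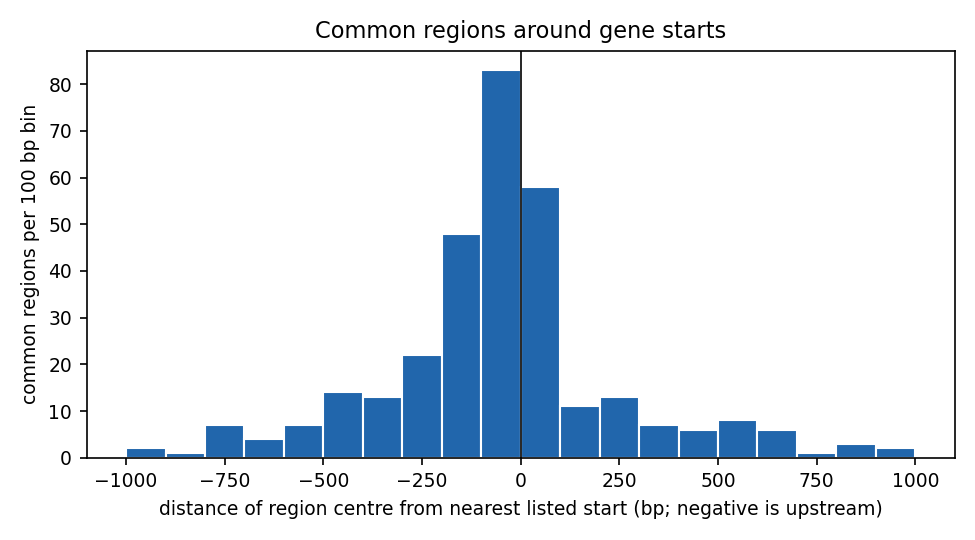
The histogram counts common regions in bins of 100 bp by the distance of their centre from the nearest listed start, with negative distances upstream. Distances were rounded to whole bp, with 0 taken as downstream. The tallest bins are the 100 bp upstream, with 83 regions, and the 100 bp downstream, with 58.

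Most common regions centred in a promoter had the canonical E-box there. RefSeq promoters run from 250 bp before to 50 bp after a start, 300 bp in all, and 186 common regions had their centre in one. A region was counted when any promoter holding its centre carried the element. Shares over all promoters count each promoter once, so the 2 measures are not quite alike. CACGTG, a palindrome that reads alike on both strands, was counted for 112 of the 186 common regions (60.2%, 52.8 to 67.3%). It was in 47.1% (41.7 to 52.5%) of 340 regions with 2 lists and in 27.8% (24.8 to 30.9%) of 854 with 1 list. Of the regions with 2 lists, those of liver and kidney held it in 50.2% (43.7 to 56.7%) of 239. The share was 41.3% (30.1 to 53.3%) of 75 for kidney and heart and 34.6% (17.2 to 55.7%) of 26 for liver and heart. Each of these intervals by pair overlapped that of the common regions. Over all 32817 promoters, CACGTG was in 7.15%. Promoters with a GC content of at least 60% held it in 10.8% of cases; the median GC content was 66.7% at common regions, 67.3% for 2 lists and 65.7% for 1 list, against 52.7% over all promoters. With a percentile of 90 or more in some list the share was 59.7% (50.7 to 68.2%) for common regions, 63.9% (50.6 to 75.8%) for 2 lists and 42.9% (17.7 to 71.1%) of 14 regions for 1 list. Among such strong peaks the intervals overlapped, and common regions could not be told from the others by this share. Within the common regions it was 66.1% in the 62 regions highest by mean percentile, 56.5% in the middle 62 and 58.1% in the lowest 62, with overlapping intervals.

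**Figure D4:**
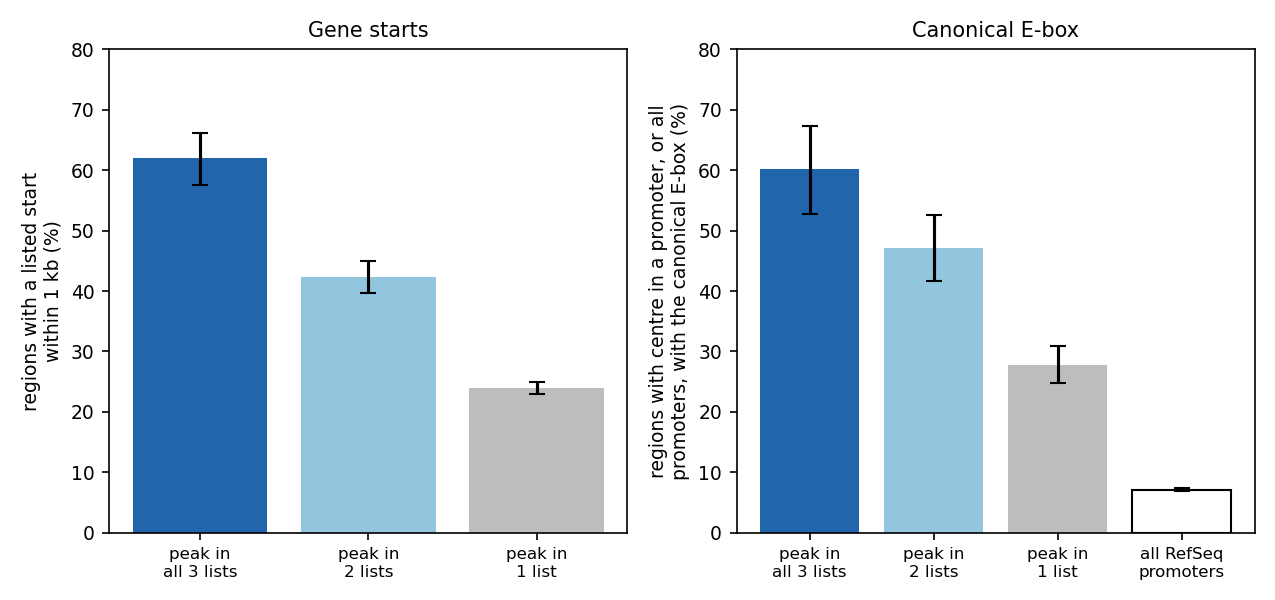
Left, the share of regions with a listed start within 1 kb. Right, the share with the canonical E-box in any promoter that holds their centre. Classes are regions with peaks in all 3, 2 or 1 lists, with all promoters added on the right. Bars are percent with exact 95% intervals, and both shares are highest for the common regions, at 62.0% and 60.2%.

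In common regions with a canonical E-box, the nearest copy tended to lie close to the region's centre. The nearest CACGTG was a median of 16.8 bp from the centre. Of the 112 regions with a copy, 78 (69.6%, 60.2 to 78.0%) had one within 25 bp, against 61.9% (53.9 to 69.4%) for 2 lists and 51.1% (44.5 to 57.6%) for 1 list. The first and last of these intervals did not overlap, but the classes are not alike in this measure. The centre is the mean of 3 peaks in a common region and of 1 peak for 1 list, and common regions more often held at least 2 copies. Peak strength was not matched either. Measured from each list's own peak in the common regions, the median distance was 18 bp for liver peaks, 18.5 bp for kidney peaks and 16.0 bp for heart peaks. At least 2 copies were present in 33 of 186 common regions (17.7%, 12.5 to 24.0%), in 10.0% (7.03 to 13.7%) for 2 lists and in 3.04% (2.0 to 4.43%) for 1 list.

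**Figure D5:**
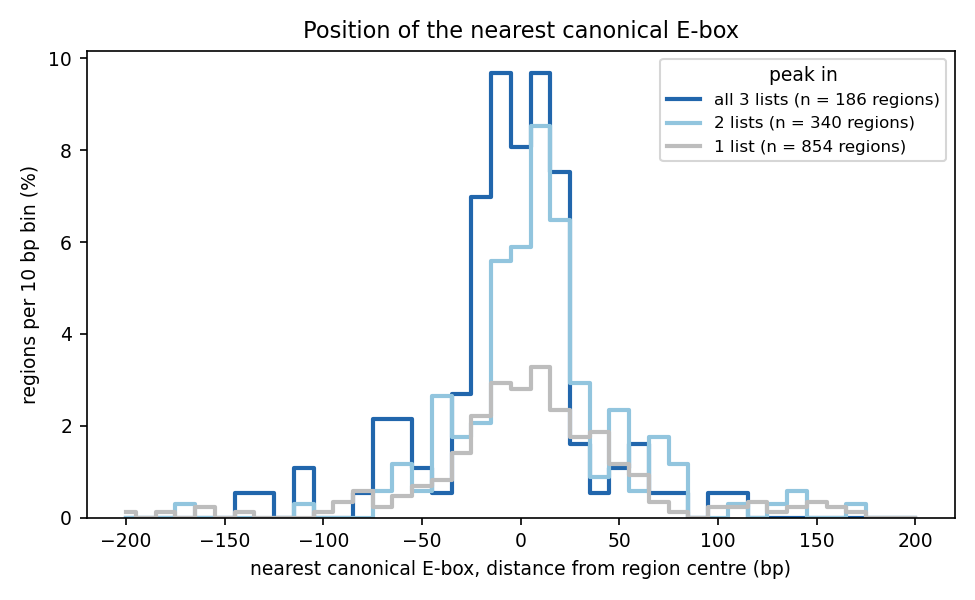
Lines give the share of regions whose nearest canonical E-box falls in each 10 bp bin of distance from the region's centre, for regions with their centre in a promoter. All 3 classes peak near the centre, the common regions (n = 186) highest, with a median distance of 16.8 bp, and the regions of 1 list (n = 854) lowest.

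Other elements were rarer. CACGTT, searched on both strands, was in 13.4% of the 186 common regions, 9.41% for 2 lists, 9.02% for 1 list and 4.69% of all promoters. Either CACGTG or CACGTT was in 126 (67.7%, 60.5 to 74.4%), against 53.8%, 34.9% and 11.4%. A pair of CACGTG and CANNTG with 6 or 7 bp between them was in 4 regions (2.15%), against 0.294%, 0.820% and 0.125%. CANNTG of any kind, which takes in CACGTG, was in 82.8%, 79.1%, 72.4% and 72.3%, in the same order. The D-box (TTATGTAA or TTACGTAA) was in 2.69% of common regions (0.878 to 6.16%), an interval that holds the 1.05% of all promoters. For 2 lists and 1 list the D-box was in 0.882% and 0.703%. The ROR element was in 0 of 186 (0 to 1.96%), and its 0.219% of all promoters is inside that interval. GATAAG, searched as a contrast, was in 2.15% of common regions (0.589 to 5.41%), 3.24% for 2 lists and 4.45% for 1 list. All promoters held it in 7.45% of cases, so a lower share was not particular to the common regions. Of 78 CACGTG copies within 25 bp of the centre in common regions, 38.5% (27.7 to 50.2%) extended to CACGTGAC on either strand. The extension was in 37.4% of 99 such copies for 2 lists and 39.7% of 121 for 1 list, so it did not set the common regions apart. Over all promoters it was in 31.2% of copies.

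The clock genes were not all among the regions with a canonical E-box. Of 49 common regions at genes of the lists, 16 had their centre in a promoter, and 8 of these carried CACGTG: at Per1, Tef, Bhlhe41, Ciart, Klf11, Klf15, Sirt1 and Ppp1r3c. Another 2 carried CACGTT without CACGTG. For Tef, the listed start nearest to that region was 2 bp away and belonged to Gm17597. The strongest Tef region, 443 bp upstream of a Tef start, was not centred in a promoter and was not searched. Neither the promoter of Per3 nor that of Dbp held CACGTG, although both regions were in the best 20. In all, 60 of the 186 common regions had neither CACGTG nor CACGTT in the promoter searched, and 32 had no CANNTG. The promoters covered a median of 96.5% of the 200 bp around the centre, and in the least covered region 51.5%.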

How the data were processed

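Per the labels, the authors pooled the ChIP and input replicates within each tissue and deposited 1 peak list per tissue, with a position and a whole-number score per peak; no source used here gives the score's scale, each tool's role or the read depth. The submitters' processing notes name Bowtie2, SAMtools, HOMER and mm10. The score served to place peaks within a list and is printed as deposited. Its scale may differ between lists, so scores of different tissues are not on a known common scale. Percentile is the share of the list ranked at or below a peak.

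Peaks were merged at an overlap of at least 1 bp with Python 3.11.15, pandas 2.3.3, numpy 2.4.6 and scipy 1.17.1; merging and motif search were tested on simulated data. Gene names and coordinates came from RefSeq tables of GRCm38.p6. With no genome sequence used here, motifs were searched in RefSeq promoters holding a region's centre, in place of 200 bp around every centre, and windows moved by 5 kb were not searched. Chromosome 18 starts were not used here. Genes were counted with a region inside or within 10 kb.

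Members and gene lists were chosen with earlier results of these data known. Genes named were all list genes, the best 20 regions by mean rank, the 5 per tissue with the largest percentile excess, the genes with most regions and the edges of the rule; the further groups among the other observations were chosen after their values were seen. A few genes that the rule selects are not reported here. Alternatives changed the overlap rule, score range, windows and distances. Leaving out a replicate was not possible, since the lists pool replicates.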

Additional observations from a re-analysis of the deposited data

How the results depend on the processing

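Of 23 alternative values, 16 kept within 1.5 times the main count or inside the main interval and 7 moved. The count of common regions ran from 450 to 544 under the other overlap and score rules, and was 339 when each list was limited to its top 1000 peaks. The share at a start, 62.0%, became 53.9% within 500 bp, 70.8% within 5 kb and 57.3% with protein-coding genes only. The E-box share, 60.2%, became 48.4% in the 100 bp around the centre. The share in clusters, 11.4%, became 8.48% at a link of 10 kb and 22.4% at 100 kb. Each of these follows from the narrower or wider window, the fewer starts or the shorter list. Gene counts from the lists stayed at 27 or 28 of 82. Choosing regions by a percentile of at least 90, and taking either end of any RefSeq gene as a start (65.1%), were alternatives added after the data were seen. No paired analysis was possible because each list pools all replicates of a tissue; for the same reason no replicate could be left out. Depth is unknown, so a region missing from a list may be a peak just under its threshold, and 519 is the number listed in all tissues, not the number bound.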

Other observations

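Further gene groups were met when the nearest genes of the common regions were read through. They were chosen after the values were seen, so no count was set against a background. Among them were nuclear factor I genes, which encode dimeric DNA-binding proteins. Nfix scored 107 in liver, 47 in kidney and 85 in heart, Nfic 84, 67 and 72, and Nfib 64, 62 and 70. Nfia had 2 regions, with 59, 23 and 59 and with 35, 24 and 34. At the first, kidney ranked lowest, at 2474 of 4034 peaks, against 1362 of 4813 in liver and 370 of 2519 in heart. Genes of the response to low oxygen were also present. Hif1a, the oxygen-regulated subunit of the factor, scored 145, 137 and 127, Egln2, a prolyl hydroxylase gene, 135, 76 and 80, and Ldha, the lactate dehydrogenase A gene, 124, 60 and 74. Bnip3, whose promoter sequence is printed in the results, scored 218, 169 and 172.

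Genes of nutrient sensing at the lysosome included Fnip1 with 138, 96 and 98, Fnip2 with 118, 60 and 45, Tsc1, a brake on mTORC1, with 66, 45 and 40, and Ulk1, a kinase that starts autophagy, with 54, 48 and 30. Genes of lipid metabolism had some uneven regions. Slc27a2, a fatty acid transporter gene, scored 233 in liver, 184 in kidney and 37 in heart, at percentiles of 99.5, 99.3 and 71.3. Dgat2, of triglyceride synthesis, scored 151, 130 and 131 and was even by percentile, at 97.0, 97.4 and 97.2. Angptl4, an inhibitor of lipoprotein lipase, scored 118, 98 and 101, at percentiles of 93.9, 94.7 and 94.7. Insig1, a brake on sterol synthesis, scored 163, 78 and 112. Among genes of translation, Ncl, the gene of nucleolin, scored 196, 147 and 120, Eef2k 173, 103 and 119, Eif4g1 168, 94 and 81, and Mknk2 168, 145 and 116. Hes1 and Mnt, both genes of E-box or N-box binding repressors, had 2 common regions each, with 180, 101 and 106 for the stronger at Hes1 and 107, 102 and 119 for the better-ranked at Mnt.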
